A study of Mus musculus with 24 samples.

Results

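The translation initiation factors (eIFs) and elongation factors (eEFs) were followed as mRNAs in cultured fibroblasts of mouse embryos (MEFs). Members were chosen by symbol alone, as every gene named Eif or Eef followed by a digit, without the Eif2ak kinases, the Eif4ebp binding proteins and Eif2s3y. This rule took 64 of the 55487 genes in the deposited count table. Of the 64 members, 60 had enough counts to be tested, among 15828 genes tested in all, and the members not tested were Eef1a2, Eif2c5, Eif4e1b and Eif4a3l1. Cells came from a WT (wild-type) line and from a line that the labels give as AMPK-KO. AMPK, the AMP-activated protein kinase, is switched on when cellular energy runs low. MEFs of each genotype received DMSO as vehicle, MK-8722, which activates AMPK, or torin1, which inhibits the kinase MTOR, and each of the 6 groups held 4 libraries of poly(A) RNA. The study's methods describe the knockout as lacking both catalytic AMPK subunits, encoded by Prkaa1 and Prkaa2. Passages were 12 to 15 for WT and 16 to 19 for AMPK KO, with 1 library of each passage in every group, so genotype, cell line and passage range cannot be told apart. Nothing in the labels says that libraries of a group came from separate animals, and p-values therefore measure the spread between these cultures.

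Translation of most mRNAs begins when eIF4E binds the cap at the start of the mRNA and, with the scaffold eIF4G and the RNA helicase eIF4A, forms the eIF4F complex. The eIF3 scaffold links this complex to the small ribosomal subunit, and eIF2 carries the initiator methionine tRNA to the start codon and is recharged with GTP by eIF2B. Elongation then runs on eEF1A, which delivers each aminoacyl-tRNA, and on eEF2, which moves the ribosome along the mRNA. MTOR is best known here for acting on existing proteins and mRNAs, through the eIF4E-binding proteins and through mRNAs that start with a run of pyrimidines, the 5′ terminal oligopyrimidine (TOP) mRNAs. Most eEF1 and eEF2 mRNAs belong to that TOP class.

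The estimated counts summed to 26900240 to 34192685 per library, and no library stood apart, with a median correlation of 0.991 to 0.994 with the other libraries of its group. Among fibroblast markers, 5 of 8 were above 5 CPM in every library and their summed level was 4768 to 17097 CPM, while Thy1 (0.12 to 2.29 CPM), Pdgfra (0.133 to 6.49 CPM) and Col3a1 were low in part of the libraries. The summed neural markers held 87.8 to 144 CPM, from Map2 and Tubb3, and those of endothelium, epithelium, leukocytes and skeletal muscle reached at most 8.49 CPM. The targeted genes were still transcribed in AMPK KO with DMSO, Prkaa1 at 70.9 ± 2.95 CPM (SD, n = 4) against 80.9 ± 2.00 CPM in WT and Prkaa2 at 3.21 ± 0.97 against 4.74 ± 1.12 CPM, so their mRNA levels do not check the genotype labels. CPM are counts scaled to library size with TMM factors. Every value is a share of the poly(A) RNA of a culture, so that less RNA per cell and fewer cells of a type cannot be told apart.

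The members took 3.18 to 3.42% of all counts in WT with DMSO. Their levels, compared per length as TPM (an abundance scaled for transcript length and depth), spanned more than 4 orders of magnitude. Eef1a1, which delivers aminoacyl-tRNA, was highest at 12609 ± 279 TPM (SD, n = 4) in WT with DMSO. It was followed by the translocase Eef2 at 2580 ± 128 TPM and by Eif5a, a factor that helps ribosomes past difficult peptide bonds, at 1851 ± 19.1 TPM. The ranges of these 3 genes did not overlap. Subunits of eIF2B lay between 44.7 and 117 TPM and those of eIF3 between 38.4 TPM for Eif3j2 and 539 TPM for Eif3b. The low end held Eef2k, the kinase that inhibits eEF2, at 16.9 TPM, Eif5a2 at 7.40 TPM, the cap-binding paralog Eif4e3 at 2.18 TPM and the lysine methyltransferase gene Eef1akmt3 at 0.730 TPM. Eif4a3l2 reached at most 0.771 TPM in any library.

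**Figure D1:**
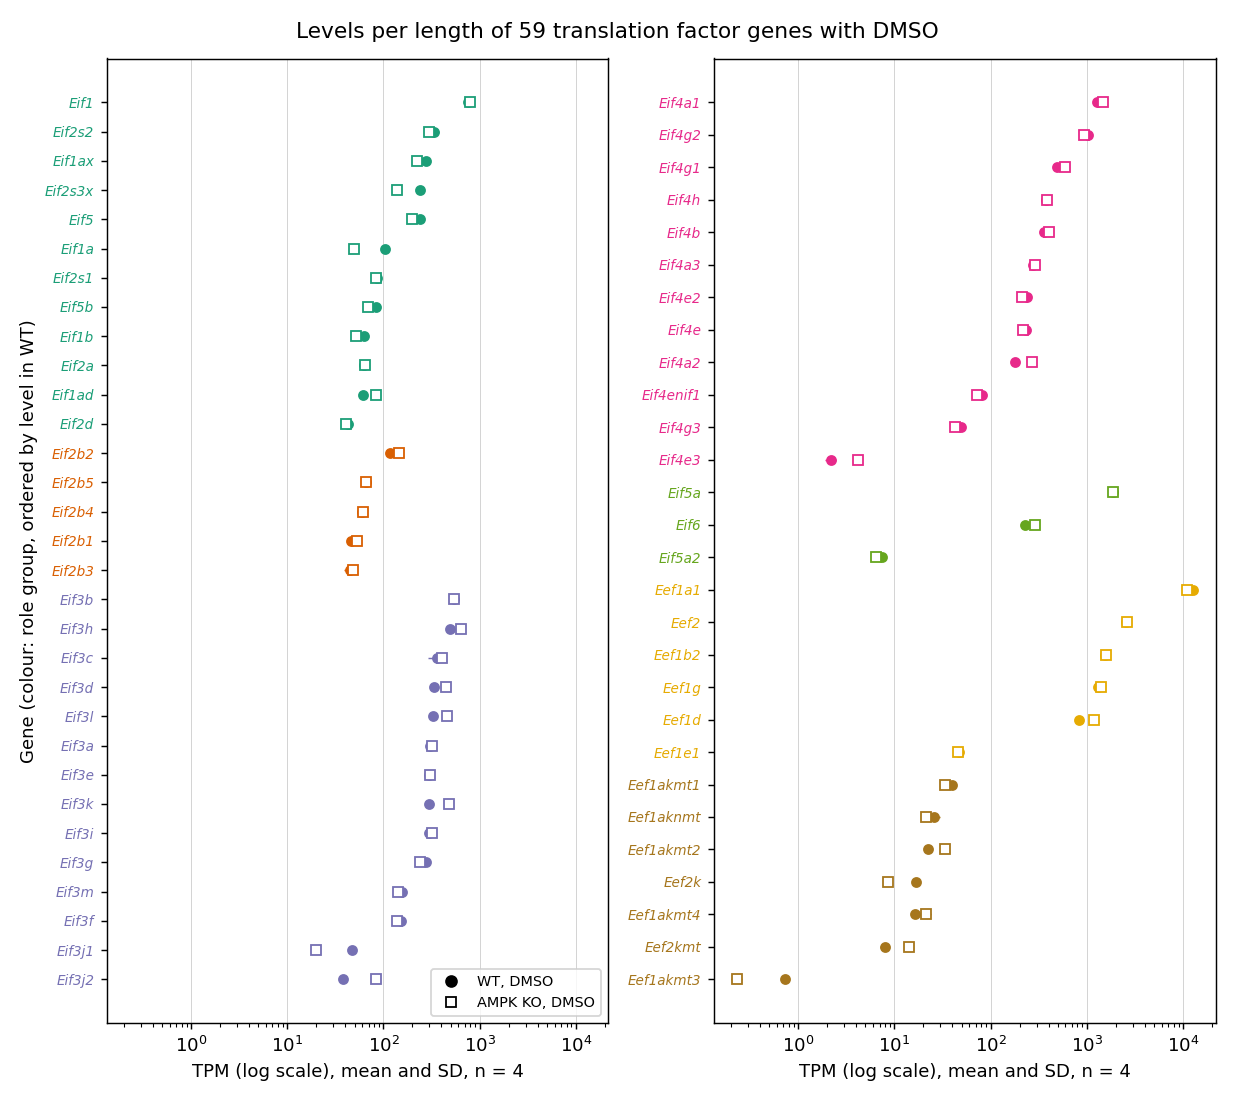
Level of each of 59 tested genes (Eif4a3l2 is not drawn) in TPM on a log axis in WT (filled circles) and AMPK KO (open squares) with DMSO, coloured by role, as the mean and SD of 4 libraries. Eef1a1 stands highest, at 12609 TPM in WT, and Eef1akmt3 lowest, at 0.730 TPM.

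Torin1 moved the factors in both directions. In WT, 29 of the 60 tested members changed, 9 higher and 20 lower, where a call needed a fold change of 1.2 or more and an adjusted p below 0.05 (edgeR quasi-likelihood test, Benjamini-Hochberg adjustment over all genes tested). That is 48.3% of the members, against 47.6% of all genes tested, so the count by itself is not a result about these genes. By direction, 15.0% of members were higher and 33.3% lower, against 26.6% and 21.1% of all genes. In AMPK KO, 30 members changed, 9 higher and 21 lower, or 50% against 43.5% of all genes tested, with 15.0% higher against 25.9% and 35.0% lower against 17.6%. At the adjusted p alone 46 members passed in WT (60.1% of all genes) and 44 in AMPK KO (57.2%). The median log2 fold change of the tested members was -0.16 in WT and -0.17 in AMPK KO, against 0.04 and 0.06 over all genes. When libraries were scaled by library size alone, the median of all genes moved to 0.14 in WT and 0.12 in AMPK KO and the members split into 14 higher and 15 lower in WT and 9 higher and 17 lower in AMPK KO.

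Cap recognition and unwinding factors held the most changes, with 10 of 12 tested genes changed by torin1 in WT, 3 higher and 7 lower, and 10 changed in AMPK KO, again 3 higher and 7 lower. That is 83.3% in each genotype, against 47.6% of all genes tested in WT and 43.5% in AMPK KO. The cap-binding protein gene Eif4e held 166, 163, 179 and 172 CPM in the WT libraries with DMSO and 85.9, 90.1, 88.6 and 96.1 CPM with torin1. The WT groups lay far apart, and Eif4e fell by 0.92 ± 0.05 on the log2 scale (SE, edgeR adjusted p = 1.77e-13), the largest fall of a member in WT. AMPK KO libraries started at 145, 156, 138 and 147 CPM and ended at 86.1, 89.4, 81.6 and 85.2 CPM, a fall by 0.77 (edgeR adjusted p = 5.07e-12). With torin1 the ranges of both genotypes overlapped. The main eIF4G scaffold gene, Eif4g1, moved from 1387, 1321, 1371 and 1262 CPM to 801, 875, 822 and 922 CPM in WT and fell by 0.64 ± 0.06 (edgeR adjusted p = 7.4e-10). In AMPK KO it went from 1546, 1570, 1363 and 1516 CPM to 1030, 1169, 1044 and 1089 CPM and fell by 0.47 (edgeR adjusted p = 1.61e-07). Both groups were separate in each genotype. Eif4g2, whose product lacks the eIF4E-binding part, fell by 0.45 in WT and by 0.35 in AMPK KO on the log2 scale. The cap-binding paralog Eif4e2 fell by 0.40 and 0.36, and Eif4a3, an eIF4A relative that acts in the exon junction complex, by 0.46 and 0.36. Eif4enif1, which carries eIF4E into the nucleus, fell by 0.40 in WT and Eif4h, another helicase cofactor, by 0.34 in AMPK KO.

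Eif4b, which encodes a cofactor that stimulates the eIF4A helicase, went the other way. It held 745, 738, 773 and 807 CPM in WT with DMSO and 1262, 1288, 1340 and 1376 CPM with torin1, and rose by 0.78 ± 0.05 (edgeR adjusted p = 9.06e-13). In AMPK KO, 840, 889, 757 and 803 CPM became 1396, 1467, 1475 and 1457 CPM, a rise of 0.82 (edgeR adjusted p = 1.22e-12), and no torin1 library came near the DMSO range. Eif4e3, an atypical cap-binding paralog of Eif4e, rose by 1.12 ± 0.12 in WT (edgeR adjusted p = 3.93e-08) and by 0.85 in AMPK KO (edgeR adjusted p = 1.02e-06), at a low level of 3.52 ± 0.456 CPM in WT with DMSO and 7.65 ± 0.966 CPM with torin1 (SD, n = 4).

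The helicase paralogs moved apart. Eif4a1, the major eIF4A gene, ranged from 1266 to 1391 CPM in WT with DMSO and held 1061, 1043, 1086 and 1082 CPM with torin1, a fall by 0.30 ± 0.04 (edgeR adjusted p = 1.93e-06) that was not called with scaling by library size alone, while in AMPK KO it fell by 0.36. Eif4a2, the minor paralog, held 184, 194, 193 and 209 CPM in WT with DMSO and 284, 265, 315 and 279 CPM with torin1, a rise of 0.55 ± 0.06 (edgeR adjusted p = 1.75e-08). In AMPK KO its levels were 247, 267, 277 and 257 CPM with DMSO and 384, 351, 386 and 367 CPM with torin1, a rise of 0.50 (edgeR adjusted p = 8.71e-08). Per length, Eif4a1 exceeded Eif4a2 by 7.14 ± 0.588 times in WT with DMSO, 5.41 ± 0.547 times with MK-8722 and 3.77 ± 0.204 times with torin1 (SD, n = 4). The ratio in AMPK KO was 5.55 ± 0.401 with DMSO, 4.73 ± 0.366 with MK-8722 and 2.99 ± 0.272 with torin1. Ranges with torin1 and with DMSO did not overlap in either genotype, nor did those of MK-8722 and DMSO in WT (exact two-sided permutation test, p = 0.0286, the smallest that 4 against 4 libraries allow, and 0.0381 after Benjamini-Hochberg adjustment over 8 tests). MK-8722 and DMSO overlapped in AMPK KO (exact permutation p = 0.0571, adjusted 0.0653).

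Part of the Eif4a2 increase lay in a transcript that is annotated as a target of nonsense-mediated decay, the pathway that degrades mRNAs with a premature stop codon. This transcript, Eif4a2-210, made up 18.7 ± 1.08% of the gene's TPM in WT with DMSO and 26.0 ± 1.66% with torin1 (SD, n = 4), and 21.1 ± 0.558% and 26.4 ± 2.46% in AMPK KO. With torin1 the ranges lay above those with DMSO in each genotype (exact two-sided permutation p = 0.0286, adjusted 0.0381). The share with MK-8722 in WT, 24.8 ± 4.15%, overlapped that with DMSO (exact permutation p = 0.0857), while in AMPK KO the share with MK-8722, 22.98 ± 1.87%, lay above that with DMSO (exact permutation p = 0.0286, adjusted 0.0381). A coding transcript, Eif4a2-202, held 21.5% of the gene's TPM in WT with DMSO and 12.0% with torin1, and 20.2% and 13.6% in AMPK KO. Shares of transcripts estimated from short reads are uncertain, and how well these were resolved was not tested.

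**Figure D2:**
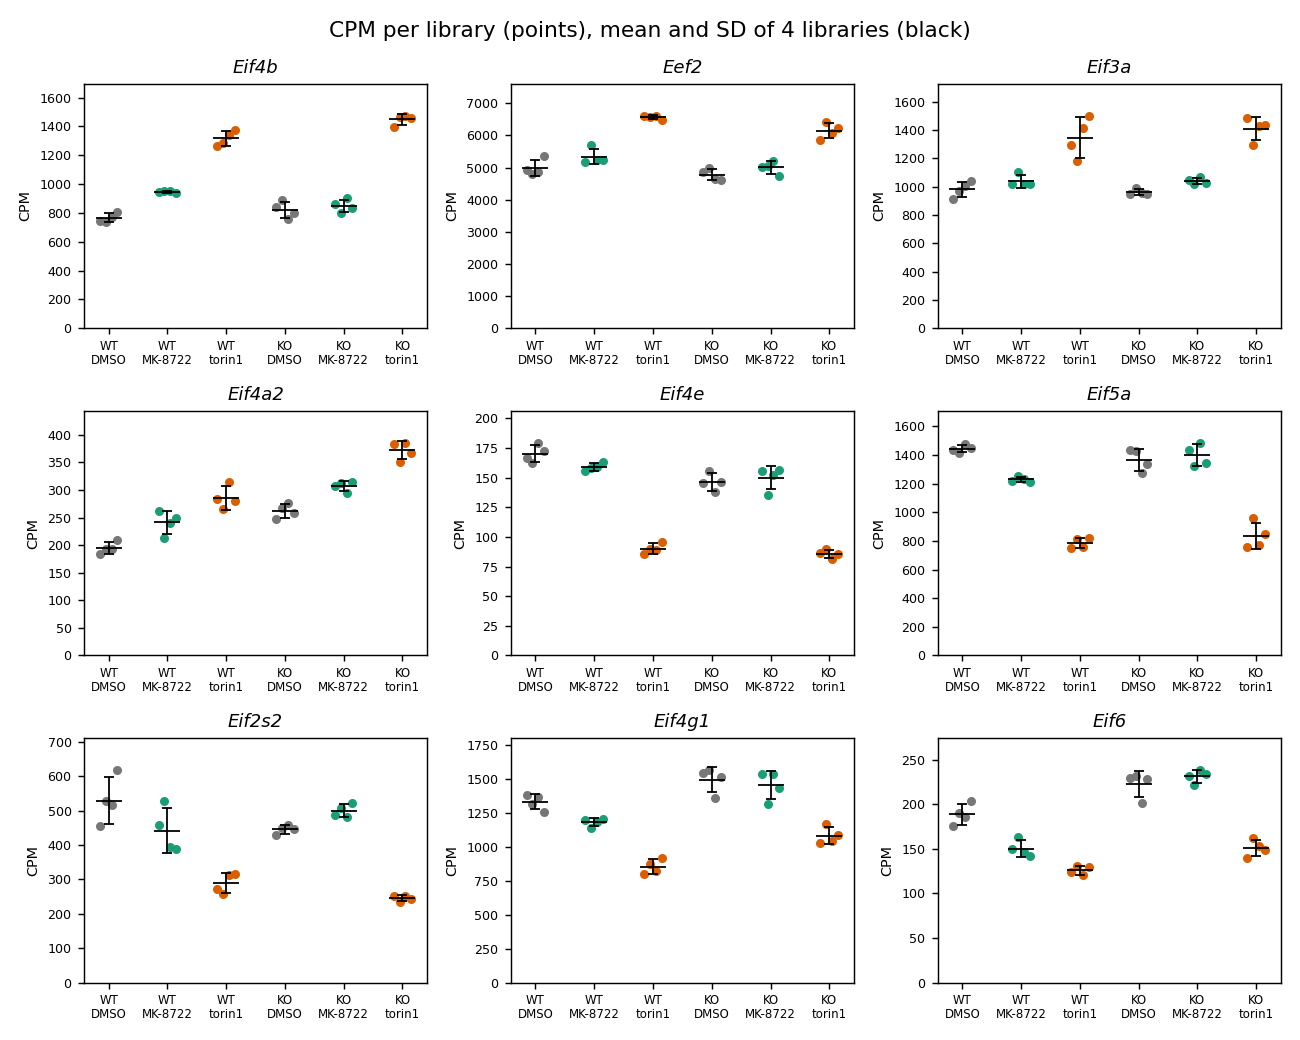
CPM of Eif4b, Eef2, Eif3a, Eif4a2, Eif4e, Eif5a, Eif2s2, Eif4g1 and Eif6 in each of the 24 libraries, by group, with the mean and SD of 4 libraries in black. Eif4b lies at 738 to 807 CPM in WT with DMSO and at 1262 to 1376 CPM with torin1, while Eif4e goes from 163 to 179 CPM down to 85.9 to 96.1 CPM.

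Of the eIF3 scaffold genes, 2 of 14 were called with torin1 in WT and 3 in AMPK KO, or 14.3% and 21.4% against 47.6% and 43.5% of all genes tested. The adjusted p alone was passed by more of them, 11 in WT (6 higher and 5 lower) and 8 in AMPK KO. Over all genes tested, 60.1% passed it in WT and 57.2% in AMPK KO. Most of these differences of the scaffold genes were thus under the fold threshold. Eif3a, its largest subunit, held 916, 969, 1005 and 1039 CPM in WT with DMSO and 1291, 1178, 1415 and 1502 CPM with torin1. The groups were separate, with a rise of 0.46 ± 0.06 (edgeR adjusted p = 2.92e-07). The AMPK KO libraries held 951, 991, 953 and 947 CPM with DMSO and 1484, 1291, 1426 and 1438 CPM with torin1, a rise of 0.55 (edgeR adjusted p = 1.88e-08). Eif3b, which holds the scaffold together with Eif3a, fell by 0.33 in WT and by 0.32 in AMPK KO, and Eif3i, a subunit bound to Eif3b, fell by 0.31 in AMPK KO. These calls of Eif3b and Eif3i were lost with scaling by library size alone. The median over the 14 genes was 0.05 in WT.

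Among the factors that scan for the start codon, carry the initiator tRNA and join the subunits, 7 of 12 changed with torin1 in each genotype, 2 higher and 5 lower. This was 58.3%, against 47.6% of all genes tested in WT and 43.5% in AMPK KO. Of the 3 subunit genes of eIF2, 1 was called in WT. Eif2s2, the beta subunit, held 455, 527, 516 and 618 CPM in WT with DMSO and 271, 257, 313 and 315 CPM with torin1 and fell by 0.87 ± 0.09 (edgeR adjusted p = 5.76e-09), and in AMPK KO it fell by 0.86 (edgeR adjusted p = 9.78e-09). For the alpha subunit gene Eif2s1, whose product is the target of the stress kinases, the WT values of 150, 155, 162 and 174 CPM with DMSO and 128, 121, 143 and 159 CPM with torin1 overlapped, and the difference of -0.22 ± 0.06 passed the adjusted p (edgeR, 0.00324) but not the fold threshold. In AMPK KO Eif2s1 fell by 0.27 (edgeR adjusted p = 5.05e-04), a call lost with scaling by library size alone and without AMPK KO DMSO replicate 2. Eif2s3x, the gamma subunit, was called in neither genotype.

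Most other falls in this group came from the eIF1A genes, whose product keeps the scanning ribosome open, and from a related gene, and Eif5 also fell in WT, by 0.36, a call lost with scaling by library size alone. Eif1a held 141, 143, 138 and 160 CPM in WT with DMSO and 71.5, 83.0, 81.1 and 92.5 CPM with torin1 and fell by 0.83 ± 0.08 (edgeR adjusted p = 2.91e-09), and it fell by 0.51 in AMPK KO. Its X-linked copy Eif1ax fell by 0.57 in WT and by 0.51 in AMPK KO. Eif1ad, named for its eIF1A-like domain, fell by 0.76 in WT and by 0.71 in AMPK KO (edgeR adjusted p = 1.42e-10 and 5.66e-10). The rises were those of Eif2a and Eif2d, alternative carriers of initiator tRNA, by 0.43 and 0.39 in WT, with 0.47 and 0.33 in AMPK KO.

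None of the 5 eIF2B genes was called with torin1 in WT, and 1, Eif2b2, fell in AMPK KO by 0.28, a call lost with scaling by library size alone. Over all genes tested, 47.6% were called in WT and 43.5% in AMPK KO. Eif2b5, the catalytic subunit, ranged from 95.4 to 108 CPM in WT with DMSO and from 97.4 to 106 CPM with torin1, overlapping ranges with a difference of 0.0056 and a 95% interval from -0.066 to 0.078. In AMPK KO the difference was 0.12 ± 0.04 (edgeR adjusted p = 0.00571), below the fold threshold.

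Both eIF5A genes and Eif6 fell in WT. Eif5a held 1433, 1416, 1473 and 1445 CPM with DMSO and 751, 810, 758 and 818 CPM with torin1, and fell by 0.88 ± 0.06 (edgeR adjusted p = 7.09e-12). In AMPK KO its levels of 1434, 1426, 1275 and 1335 CPM became 759, 960, 769 and 851 CPM, a fall by 0.71 (edgeR adjusted p = 3.72e-10). No torin1 library reached the DMSO range in either genotype. Eif6, which keeps free large subunits from joining, went from 175, 190, 186 and 203 CPM to 124, 130, 120 and 129 CPM in WT, a fall by 0.58 ± 0.05 (edgeR adjusted p = 2.33e-09), and fell by 0.56 in AMPK KO. Eif5a2 fell by 0.41 in WT (edgeR adjusted p = 4.55e-05) and differed by -0.056 in AMPK KO (edgeR adjusted p = 0.548).

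Of the elongation factor genes, 3 of 6 were called with torin1 in each genotype, 1 higher and 2 lower. This 50% lies near the 47.6% and 43.5% of all genes tested, so the count by itself is not a result about these genes. Eef2 held 4909, 4806, 4868 and 5372 CPM in WT with DMSO and 6596, 6570, 6617 and 6489 CPM with torin1, a rise of 0.40 ± 0.04 (edgeR adjusted p = 2.05e-08). In AMPK KO, 4863, 4975, 4650 and 4612 CPM became 5852, 6408, 6086 and 6240 CPM, a rise of 0.36 (edgeR adjusted p = 1.09e-07). Eef1a1 ranged from 10829 to 11921 CPM in WT with DMSO and from 12528 to 13385 CPM with torin1, separate ranges with a difference of 0.20 ± 0.04 (edgeR adjusted p = 6.7e-05), which is under the fold threshold, and the difference in AMPK KO was also 0.20 (edgeR adjusted p = 9.2e-05). Eef1d, a subunit of the eEF1B exchange complex, and Eef1e1, a component of the aminoacyl-tRNA synthetase complex, fell by 0.31 and 0.45 in WT and by 0.33 and 0.34 in AMPK KO. The Eef1d call in WT was lost with scaling by library size alone. The members together took 3.52 to 3.74% of all counts in WT with torin1, above the range with DMSO, with Eef1a1 alone at 1.25 to 1.35% against 1.01 to 1.11%.

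Eef2k, which phosphorylates and inhibits eEF2, rose with its target. It held 30.5, 28.4, 28.7 and 33.7 CPM in WT with DMSO and 49.5, 46.1, 48.9 and 50.5 CPM with torin1, a rise of 0.68 ± 0.10 (edgeR adjusted p = 1.48e-06). Levels in AMPK KO were lower throughout, at 13.0, 12.0, 15.6 and 13.7 CPM with DMSO and 17.9, 17.0, 21.6 and 20.2 CPM with torin1, and rose by 0.49 (edgeR adjusted p = 2.71e-04). Eef2kmt, the gene of an eEF2 lysine methyltransferase, rose by 0.68 in WT, from 5.65, 6.58, 7.42 and 8.16 CPM to 11.5, 9.71, 11.9 and 11.6 CPM, and by 0.52 in AMPK KO (edgeR adjusted p = 7.67e-05 and 7.84e-04). Eef1akmt2, one of the eEF1A lysine methyltransferase genes, fell by 0.49 in WT and by 0.50 in AMPK KO.

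**Figure D3:**
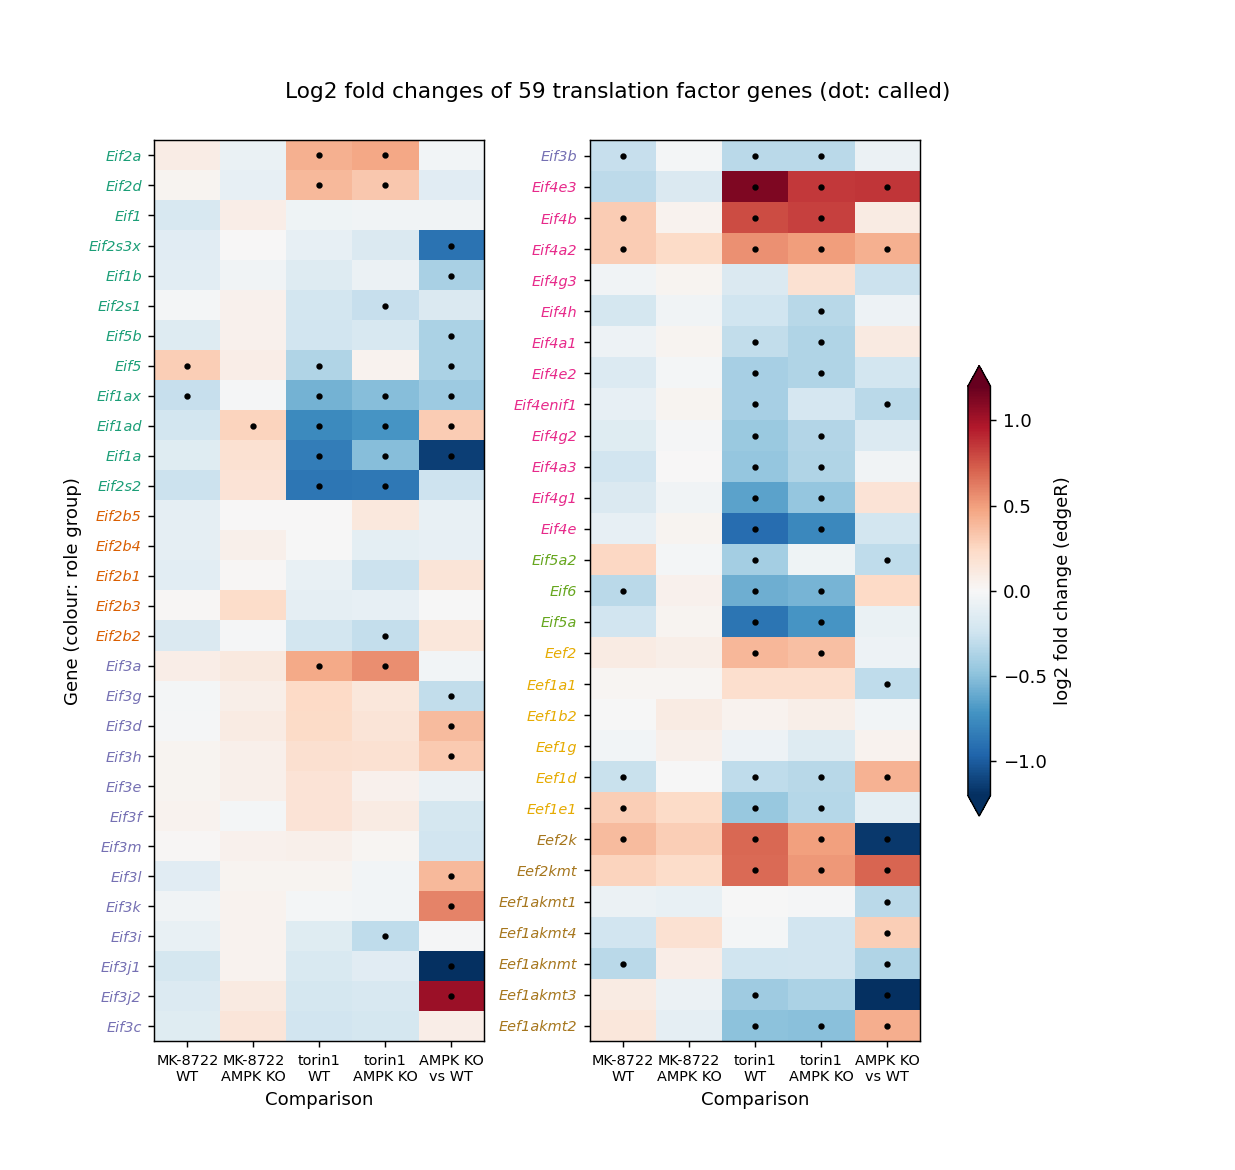
Log2 fold change of 59 tested members (Eif4a3l2 is not drawn) in 5 comparisons, ordered by role, with a dot where the gene was called. Under torin1 Eif4e falls by 0.92 in WT and 0.77 in AMPK KO while Eif4b rises by 0.78 and 0.82, and MK-8722 in AMPK KO shows a single dot, at Eif1ad.

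The torin1 responses of both genotypes rest on separate DMSO controls, so they can be set beside each other. The same 9 members rose in WT and in AMPK KO, and 16 members fell in both, 80% of those that fell in WT and 76.2% of those that fell in AMPK KO. The overlap over all genes tested was not counted, so whether these shares are particular to the members was not tested. Called in WT but not in AMPK KO were Eif4enif1, Eif5, Eif5a2 and, near 1 CPM, Eef1akmt3, whose call (edgeR adjusted p = 0.0404) was lost in 5 of 8 alternatives, DESeq2 among them, and in 5 of 8 fits without a single library, and the reverse held for Eif2b2, Eif2s1, Eif3i, Eif4h and Eif4a3l2, of which Eif4a3l2 was under 1 CPM and fell by 1.27 (edgeR adjusted p = 9.76e-04). An effect called in a single genotype is not thereby shown to differ between them. Across the 60 tested members the log2 fold changes had a Pearson r of 0.893 and a Spearman rho of 0.91, given as a description, since genes are not independent replicates. The difference between genotypes was itself called for 3 members, or 5% against 7.07% of all genes tested, all with a value higher in AMPK KO (4.15% of all genes were higher and 2.92% lower). Without the fold threshold 5 members passed, against 9.87% of all genes. Eif5, which triggers GTP hydrolysis by eIF2, held 324, 311, 309 and 330 CPM in WT with DMSO and 243, 235, 247 and 270 CPM with torin1, against 246, 259, 232 and 243 CPM and 268, 252, 246 and 246 CPM in AMPK KO. It thus fell in WT to the level that AMPK KO libraries already had with DMSO, and the interaction was 0.40 ± 0.08 (edgeR adjusted p = 0.00212). The other interactions, of Eif4g3 at 0.36 (edgeR adjusted p = 0.0493) and Eif5a2 at 0.35 (edgeR adjusted p = 0.034), were lost when single libraries were left out, in 14 and 13 of 16 fits.

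**Figure D4:**
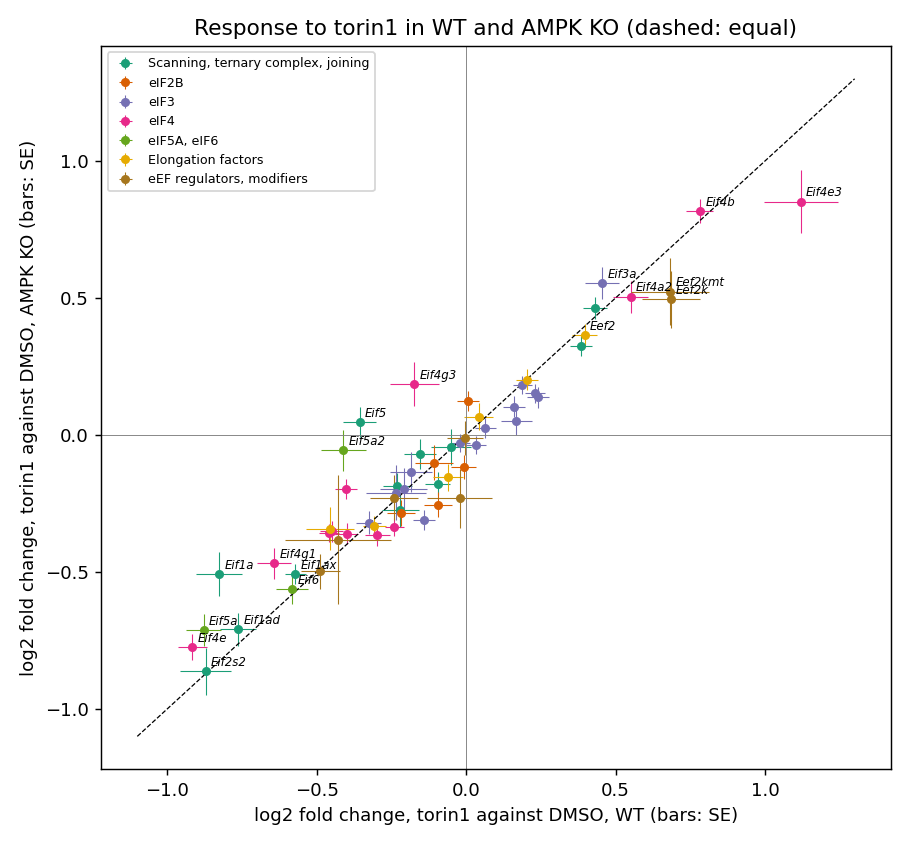
Log2 fold change with torin1 in AMPK KO (y axis) against that in WT (x axis) for 59 tested members (Eif4a3l2 is not drawn), with standard errors as bars. Most points lie near the diagonal, from Eif4e at -0.92 and -0.77 to Eif4e3 at 1.12 and 0.85, and Eif5 lies off it.

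A pyrimidine start was looked for in the first bases of the members, since TOP mRNAs are the class known to depend on MTOR. The windows below are from RefSeq on build GRCm38.p6, on the sense strand, 5′ to 3′, with 8 bases before the annotated start and 22 from it. Capitals mark a run that begins with C and continues with pyrimidines (C or T). Eef1a1 (chr9:78481703-78481732, minus strand), Eif3f (chr7:108934407-108934436, plus), Eif2s3x (chrX:94212630-94212659, minus) and Eif4g1 (chr16:20672719-20672748, plus) show a run within 5 bases of the annotated start, and differ in response, with Eif4g1 falling by 0.64 in WT.
Eef1a1: ccgCCCTCTTCCCgagggtgggggagaacg
Eif3f: taggCTCTCTCTCTTTCTCggcaagatggc
Eif2s3x: gcattttCCTTTTCTCTCCgagcaagatgg
Eif4g1: gcagctccgCCCTCTgcgccggtcacgtgg

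In Eef2 (chr10:81176623-81176652, plus) and Eif4b (chr15:102073765-102073794, plus), both of which rose with torin1, the run lay 15 and 10 bases after the annotated start, so these genes count as having none under the definition used.
Eef2: ggccgggcgttgacgtcagcggtCTCTTCC
Eif4b: ccgtcggacgccgcgccaCCCCCTCgcgct

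Eif4e (chr3:138526183-138526212, plus) and Eif2s2 (chr2:154892885-154892914, minus), with the largest falls apart from Eif5a, and Eif3a (chr19:60790672-60790701, minus), which rose, had no run in the window.
Eif4e: acagcagcggaggcggagggagctggtcct
Eif2s2: ggttggctttactgtacgcctgcgctttgg
Eif3a: cgggcggcggcgctgccgccgcgagggaat

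RefSeq windows were held for 49 of the 64 members. A C within 5 bases of the annotated start, followed by at least 4 pyrimidines on the sense strand, was found in 12 of them (24.5%), against 24.1% of the tested genes with a window and 18.3% of all 32851 windows, a description with no test, in which the 49 members include 3 that were not tested for expression. Asking for the C at the annotated start itself left 3 members (6.12%), against 3.16% of the tested genes, and a wider window of up to 30 bases after the start, chosen after seeing the data, gave 19 (38.8%), against 27.1%, so the comparison depends on the definition. With torin1 in WT, the 10 tested members with a run had 0 called higher and 4 lower, and the 36 without had 8 higher and 11 lower, both with a median log2 fold change of -0.16. In AMPK KO the medians were -0.19 with and -0.09 without a run. Over all genes in WT, 29.9% of those with a run were higher and 20.4% lower, against 27.5% and 23.8% without. The pattern of the members in WT also depended on the definition. With the C at the annotated start itself, 2 tested members had a run, with 0 called and a median of 0.03, against -0.18 without. With the wider window, 16 had a run, 3 higher and 5 lower, with a median of -0.07, against -0.18 without. A match of these letters is a description, and annotated starts need not be those used in MEFs. The groups with and without a run do not separate TOP mRNAs from others, as Eef2 was counted without. Levels of mRNA also do not measure translation, so these medians draw no conclusion on TOP mRNAs.

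MK-8722 left a smaller mark on the factors in WT. In these libraries 10 of 60 members changed, 5 higher and 5 lower, or 16.7% against 15.7% of all genes tested, of which 10.0% were higher and 5.66% lower, and the median of the members was -0.093 against -0.0017 over all genes. None of the 10 had overlapping ranges of CPM between DMSO and MK-8722, which is no separate support, since the calls rest on the same libraries. At the adjusted p alone, without the fold threshold, 28 members passed, 6 higher and 22 lower, against 28.1% of all genes, 15.0% higher and 13.1% lower. The WT DMSO libraries are those also used for torin1, so the values of both drugs share their controls.

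The kinase gene Eef2k showed the largest rise with MK-8722, to 39.1, 44.2, 37.9 and 36.7 CPM, all above the DMSO libraries (0.38 ± 0.10, edgeR adjusted p = 0.00465). Eif4b held 947, 955, 951 and 939 CPM with MK-8722, a narrow range above that of DMSO and below that of torin1, and rose by 0.31 ± 0.05 (edgeR adjusted p = 1.46e-05). Eif4a2 held 261, 212, 241 and 250 CPM and rose by 0.31 ± 0.06 (edgeR adjusted p = 2.95e-04). These 3 genes rose with torin1 as well. Eef1e1 and Eif5 rose with MK-8722, by 0.30 and 0.29 (edgeR adjusted p = 0.00572 and 2.57e-04), and fell with torin1. The Eef1e1 rise was lost in 3 of 8 fits without a single library (WT DMSO replicates 1 and 2 and WT MK-8722 replicate 2), and the Eif5 rise with the transcript length offset. Eif5 held 409, 361, 385 and 406 CPM with MK-8722, above every DMSO library.

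The falls with MK-8722 were led by Eif6, at 150, 163, 146 and 142 CPM (-0.33 ± 0.05, edgeR adjusted p = 6.65e-05), a gene that fell further with torin1. Eef1aknmt, which encodes an eEF1A methyltransferase, held 42.2, 44.0, 36.0 and 37.2 CPM, below the 47.5 to 51.8 CPM of DMSO (-0.32, edgeR adjusted p = 0.00369). Eif3b, at 597 to 657 CPM against 730 to 777 CPM, and Eif1ax, at 176 to 184 CPM against 215 to 224 CPM, each fell by 0.28 (edgeR adjusted p = 2.93e-05 and 2.65e-06). Eef1d was the other member called, with a fall by 0.27, which was lost with scaling by library size alone, with the length offset and in 3 of 8 fits without a single library (WT DMSO replicate 4 and WT MK-8722 replicates 3 and 4). The Eif3b call was lost without WT DMSO replicate 4, and that of Eif1ax with the length offset and without passages 12 and 16. Of genes that torin1 moved strongly, Eif4e differed by -0.098 ± 0.05 with MK-8722 (edgeR adjusted p = 0.13) and Eif5a by -0.23 ± 0.06 (edgeR adjusted p = 0.00396), below the fold threshold, and Eef2 by 0.097 ± 0.04 (edgeR adjusted p = 0.0903).

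In AMPK KO, MK-8722 changed 1 of 60 members, against 1.56% of all genes tested (0.866% higher), and 2 at the adjusted p alone, against 2.67%. An unadjusted p under 0.05 was reached by 9 members, with no share of all genes set beside it, and DESeq2 called 1. The gene was Eif1ad, which went from 93.3, 92.0, 94.4 and 91.9 CPM to 105, 125, 106 and 111 CPM and rose by 0.27 ± 0.06 (edgeR adjusted p = 0.0154). That call was lost in 6 of 9 alternatives, scaling by library size alone and the length offset among them. It was also lost in 3 of 8 fits without a single library. For the genes that rose with MK-8722 in WT, the differences in AMPK KO were 0.29 ± 0.10 for Eef2k (edgeR adjusted p = 0.143), 0.05 ± 0.05 for Eif4b (edgeR adjusted p = 0.677) and 0.23 ± 0.06 for Eif4a2 (edgeR adjusted p = 0.0339), which passed the p but not the fold. Eif4a2 libraries of AMPK KO held 294 to 314 CPM with MK-8722 and 247 to 277 CPM with DMSO, ranges that did not overlap.

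Tested directly, the response to MK-8722 differed between genotypes for 7 members, or 11.7% against 12.8% of all genes tested, all with a value higher in AMPK KO, where 5.12% of all genes were higher and 7.66% lower. At the adjusted p alone 15 passed, against 16.7% of all genes. The count depended on the fit, as 12 members were called with passage as a block, 11 in DESeq2 and 13 without WT MK-8722 replicate 2. Eif1ad differed by 0.48 ± 0.08 (edgeR adjusted p = 2.58e-04), as it stood at 64.1, 73.0, 61.7 and 60.1 CPM with MK-8722 in WT, around or below the 70.5 to 81.7 CPM of DMSO, and rose in AMPK KO. Eif2s2 differed by 0.42 ± 0.12 (edgeR adjusted p = 0.0175), Eef1aknmt by 0.40 ± 0.11 (edgeR adjusted p = 0.0158) and Eif6 by 0.38 ± 0.08 (edgeR adjusted p = 0.00122). Eif6 held 229, 232, 201 and 229 CPM in AMPK KO with DMSO and 231, 221, 238 and 234 CPM with MK-8722, overlapping ranges, where the WT ranges were separate. Eif1a, Eef1d and Eif1ax differed by 0.33, 0.27 and 0.27, calls lost in 10, 6 and 6 of 16 fits without a single library. The Eif4b response differed by -0.26 ± 0.06, lower in AMPK KO (edgeR adjusted p = 0.00608), which passed the p but not the fold, and no difference passed the p for Eef2k (-0.09, 95% interval -0.37 to 0.191) or Eif4a2 (-0.08, -0.239 to 0.083). Scaling by library size alone gave 5 higher and 2 lower among the members called. Across the 60 members the MK-8722 responses of both genotypes had a Pearson r of -0.02 and a Spearman rho of 0.12, again as a description. These values include Eif4a3l2, under 1 CPM, at 0.32 in WT and at -0.76 in AMPK KO, the lowest value of a member there. The correlation without Eif4a3l2 was not computed, so a low r here does not show that the responses are unrelated.

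Set directly against MK-8722 in WT, torin1 differed for 23 members, 9 higher and 14 lower, or 38.3% against 45.7% of all genes tested, of which 24.5% were higher and 21.2% lower. By the adjusted p alone 36 passed, against 58.5% of all genes, and scaling by library size alone gave 14 higher and 11 lower. Eif4e3 (1.43), Eif4b (0.47), Eef2kmt (0.42) and Eif3a (0.38) were the genes furthest above, and Eif4e (-0.82), Eef1e1 (-0.75), Eif1a (-0.68) and Eif5a2 (-0.66) those furthest below, all on the log2 scale. Eef1e1 held 37.0, 42.7, 38.8 and 40.8 CPM with MK-8722 and 22.7, 19.9, 24.3 and 27.7 CPM with torin1, on either side of the 29.1 to 36.2 CPM of DMSO. Eif5a2 was placed in the same way, at 27.1 to 32.1 CPM with MK-8722, 22.4 to 26.5 CPM with DMSO and 16.4 to 21.7 CPM with torin1.

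AMPK KO differed from WT with DMSO in 27 members, 12 higher and 15 lower. This is 45.0% of the members, below the 56.9% of all genes tested, of which 30.9% were higher and 26.0% lower. At the adjusted p alone 44 members passed, against 69.5% of all genes. Scaling by library size alone moved the median of all genes to 0.15 and the split of the members to 17 higher and 6 lower. The eIF2B genes had no call, the regulators and modifying enzymes had 7 of 7, and the scanning and ternary complex factors 7 of 12, of which 6 were lower. For some genes that torin1 moved strongly the interval of the genotype difference included 0, as Eif3a differed by -0.03 (95% interval -0.145 to 0.08), Eif5a by -0.08 (-0.189 to 0.037) and Eef2 by -0.06 (-0.146 to 0.02).

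Eef2k stood out among the regulators, at the levels given above, with 12.0 to 15.6 CPM in AMPK KO below 28.4 to 33.7 CPM in WT, a difference of -1.16 ± 0.10 (edgeR adjusted p = 5.03e-10). Eef2kmt was higher in AMPK KO, at 11.7, 11.4, 11.4 and 10.6 CPM, by 0.69 (edgeR adjusted p = 4.59e-05). The eEF1A methyltransferase genes went both ways, with Eef1akmt2 and Eef1akmt4 higher by 0.43 and 0.29 and Eef1aknmt, Eef1akmt1 and, near 1 CPM, Eef1akmt3 lower by 0.36, 0.32 and 1.76. The calls of Eef1aknmt and Eef1akmt1 were lost with scaling by library size alone, and that of Eef1akmt4 in 4 of 8 fits without a single library. Of the eIF4 genes, Eif4e3 was higher by 0.86 and Eif4a2 by 0.43 (edgeR adjusted p = 1.67e-06 and 5.76e-07), with no overlap between genotypes. Eif4e differed by -0.22 ± 0.05 (edgeR adjusted p = 2.72e-04) and Eif4g1 by 0.17 ± 0.06 (edgeR adjusted p = 0.0105), both under the fold threshold. Eef1a1 was lower by 0.31 (edgeR adjusted p = 1.54e-07), at 8825 to 9366 CPM, a call that was lost when libraries were scaled by library size alone.

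The largest genotype differences of the scaffold lay in a pair of copies. Eif3j1 held 147, 157, 159 and 173 CPM in WT and 53.4, 59.2, 51.3 and 57.3 CPM in AMPK KO, a fall by 1.52 ± 0.07 (edgeR adjusted p = 6.86e-15), while Eif3j2 held 59.1, 58.5, 57.0 and 59.3 CPM in WT and 118, 127, 113 and 120 CPM in AMPK KO, a rise of 1.03 ± 0.08 (edgeR adjusted p = 2.14e-11). Both encode the loosely bound eIF3j subunit and are close copies, so the split of reads between them is uncertain. Their summed level was 104 ± 4.43 TPM in AMPK KO against 85.4 ± 3.69 TPM in WT, and 175 ± 9.24 against 217 ± 10.9 CPM (SD, n = 4, exact two-sided permutation p = 0.0286 each, the smallest possible). The sum was thus higher per length and lower in counts, with annotated transcripts of 5413 bases for Eif3j1 and 2379 for Eif3j2. Eif3k, a peripheral eIF3 subunit, was higher by 0.60 (edgeR adjusted p = 7.32e-14), at 193, 195, 184 and 193 CPM against 123, 130, 126 and 128 CPM. Eif3d, Eif3h and Eif3l were higher by 0.38, 0.31 and 0.39, and Eif3g was lower by 0.30. The Eif3h call was lost without WT DMSO replicate 1 or 2. That of Eif3g was lost with scaling by library size alone, with at least 10 counts in every library and without passages 12 and 16. In all, 5 of 14 scaffold genes were higher and 2 lower, or 35.7% and 14.3%, against 30.9% and 26.0% of all genes tested.

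Of the 12 scanning and ternary complex factors, the largest differences between genotypes were those of Eif1a and Eif2s3x. Eif2s3x held 532, 521, 569 and 545 CPM in WT and 300, 307, 279 and 285 CPM in AMPK KO, a fall by 0.89 ± 0.04 (edgeR adjusted p = 3.75e-15). Eif1ax held 218, 215, 224 and 220 CPM against 160, 169, 157 and 162 CPM, a fall by 0.44 (edgeR adjusted p = 1.14e-10). Both genes lie on the X chromosome. Xist, the RNA that coats the inactive X, held 0.0553 ± 0.017 CPM in AMPK KO and 311 ± 22.4 CPM in WT (SD, n = 4), and the X-linked Kdm5c, Kdm6a and Ddx3x were lower by 0.78, 0.68 and 0.30 on the log2 scale, while the Y-linked Ddx3y, Uty, Kdm5d and Eif2s3y had 0 counts in WT with DMSO and means of 0.13 to 0.33 CPM in AMPK KO. The part of X dosage in these differences was not tested. The autosomal copy Eif1a fell as well, from 138 to 160 CPM down to 57.0 to 75.5 CPM (-1.13 ± 0.08, edgeR adjusted p = 6.06e-12). Eif1b, Eif5 and the subunit joining factor gene Eif5b were lower by 0.39, 0.38 and 0.38, calls that were lost with scaling by library size alone, and Eif1ad was higher by 0.30, a call lost without a filter and without WT DMSO replicate 1 or 3.

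**Figure D5:**
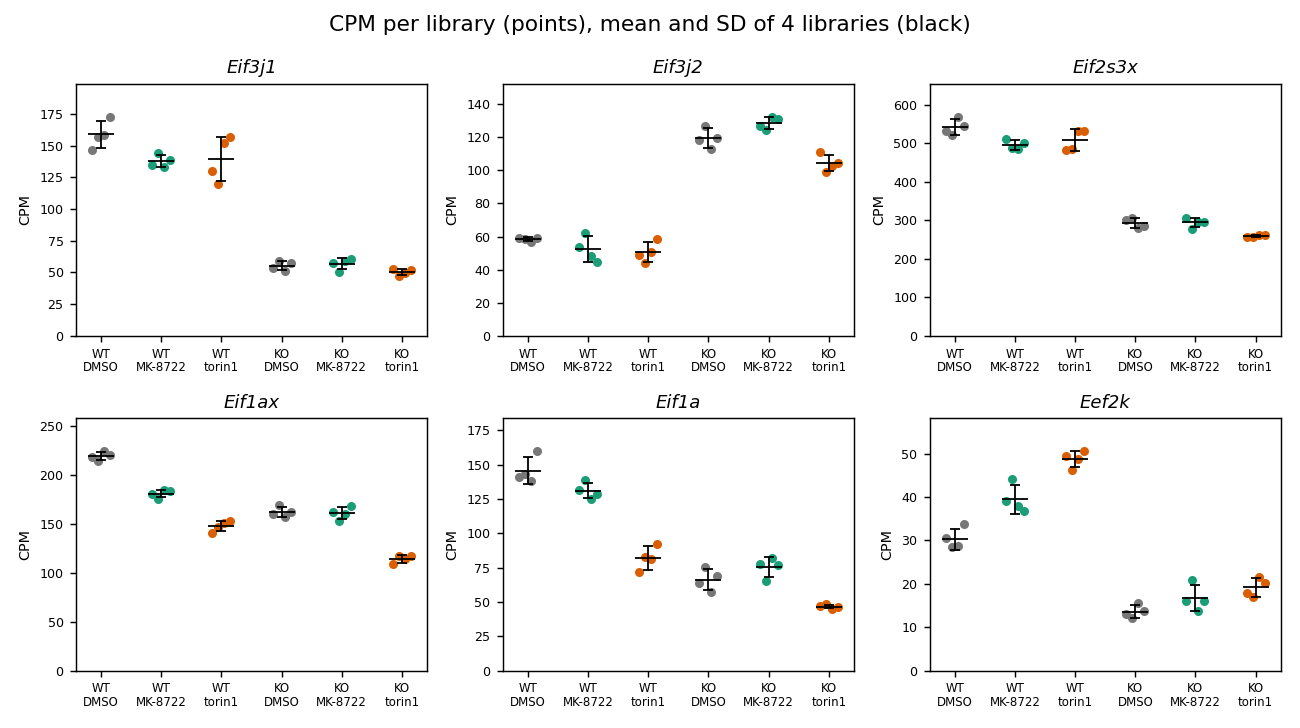
CPM of Eif3j1, Eif3j2, Eif2s3x, Eif1ax, Eif1a and Eef2k in each of the 24 libraries, by group, with the mean and SD of 4 libraries in black. With DMSO, Eef2k lies at 28.4 to 33.7 CPM in WT and 12.0 to 15.6 CPM in AMPK KO, and Eif3j2 is the only gene of the 6 that is higher in AMPK KO.

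Among 41 other translation control genes, torin1 changed 20 in WT, 5 higher and 15 lower, and 16 in AMPK KO, 2 higher and 14 lower. These are 48.8% and 39.0% of the list, against 47.6% and 43.5% of all genes tested, so the counts are not a result about this list. The binding proteins and kinases had 8 of 13 changed in WT. Eif4ebp1, whose product holds eIF4E away from eIF4G, fell by 1.27 in WT and 1.33 in AMPK KO, and Eif4ebp2 fell by 0.64 and 0.29. Eif4ebp3, at a low level, rose by 1.21 and 1.47, reaching 2.14 ± 0.185 CPM with torin1 against 0.922 ± 0.215 CPM with DMSO in WT, while the AMPK KO libraries held 1.54 ± 0.464 and 0.553 ± 0.097 CPM (SD, n = 4). Pdcd4, which encodes an inhibitor of eIF4A, rose by 0.85 and 1.35, and Larp1, the gene of a protein that binds TOP mRNAs, fell by 0.63 and 0.56. The termination factor genes Etf1 and Gspt1 fell by 0.60 and 0.65 in WT and by 0.49 and 0.48 in AMPK KO, and the recycling factor gene Abce1 fell by 0.60 and 0.37. Dph3, needed to make the diphthamide residue of eEF2, fell by 0.89 and 0.83, and Dohh, which completes the hypusine of eIF5A, by 0.34 and 0.41. With MK-8722, Dhps and Dph3 were called in WT, at 0.30 and -0.35, and Pdcd4 in AMPK KO, at -0.54. None of the 4 eIF2 kinase genes was called for either drug against DMSO.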

How the data were processed

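Poly(A) RNA libraries (Universal Plus mRNA-seq, short paired-end reads) were grouped by the deposited labels. The study's methods state that the authors ran nf-core/rnaseq with STAR on GRCm38 with an Ensembl annotation and UMI-tools options, and the submitters' processing notes name Salmon. As deposited, the gene table gives estimated counts without normalization, and a table per library gives estimated counts and TPM of each transcript. The deposited transcript lengths and effective lengths, in bases, are no signal or coverage and served the length offset and the lengths of Eif3j1 and Eif3j2. Counts were rounded, filtered with filterByExpr, scaled by TMM and fitted with a quasi-likelihood model of 6 group means over all 24 libraries (edgeR 4.0.16, R 4.3.3). Tests were two-sided, with Benjamini-Hochberg adjustment over 15828 genes, and a call needed an adjusted p below 0.05 together with a fold change of 1.2 or more. The common biological coefficient of variation was 0.079. The fit was tested on simulated data. The study's methods state a removal of batch effects with limma without naming the batch, and none was removed here, since all libraries carry the same batch label.

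The members, role groups and lists were chosen with earlier results of these data known, and support nothing by themselves. Named were 12 genes in every case (Eef1a1, Eef2, Eef2k, Eif4a1, Eif4a2, Eif4e, Eif4g1, Eif3a, Eif2s1, Eif2b5, Eif5a and Eif6) and, for each comparison, the 4 called members that rose most and the 4 that fell most among those averaging at least 5 CPM. Other members are given by counts or as exceptions in their role group. TPM per gene are sums over its transcripts. How counting used strand is not given in the sources used here, and reads of near-identical copies may be shared, as Eef1a1-ps1 (35.5 CPM) and Eif4a-ps4 (21.7 CPM) are also listed. Alternatives were DESeq2 1.42.0, other scalings, filters, thresholds and blocks, and leaving out each library. Amino acid sequences were not used here.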

Additional observations from a re-analysis of the deposited data

Results flagged for a closer look

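Over the 29 named members and 6 groups, 174 sets of 4 libraries were searched for a library far from the other 3, and 6 were found, where chance gives about 1 in 20. In WT with MK-8722, replicate 2 held 5695 CPM of Eef2, against 5188 to 5246 CPM in the others, and 1103 CPM of Eif3a, against 1015 to 1016 CPM. In AMPK KO with DMSO, replicate 2 held 991 CPM of Eif3a (others 947 to 953 CPM), replicate 3 held 91.7 CPM of Eif2b5 (others 96.9 to 97.8 CPM) and 201 CPM of Eif6 (others 229 to 232 CPM), and replicate 1 held 6.05 CPM of Eif4e3 (others 6.47 to 6.51 CPM).

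By the interaction test in edgeR, the response to a drug differed between genotypes for 10 members. In the main fit the value was always higher in AMPK KO on the log2 scale. These were 11.7% of the tested members for MK-8722 and 5% for torin1, against 12.8% and 7.07% of all genes tested. The counts by themselves are therefore not a result about these genes. With scaling by library size alone, 2 of the members called for MK-8722 were lower. For MK-8722 the differences were 0.48 for Eif1ad, 0.42 for Eif2s2, 0.40 for Eef1aknmt, 0.38 for Eif6, 0.33 for Eif1a, 0.27 for Eef1d and 0.27 for Eif1ax. For torin1 they were 0.40 for Eif5, 0.36 for Eif4g3 and 0.35 for Eif5a2. Calls of Eif1a, Eef1d, Eif1ax, Eif4g3 and Eif5a2 were lost in 10, 6, 6, 14 and 13 of 16 fits without a single library.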

How the results depend on the processing

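No called result on a member reversed its direction under any alternative run. Changes of sign in differences that were not called were not counted. Counts of called members moved as follows. At the adjusted p alone they were 28 (MK-8722 in WT), 2 (MK-8722 in AMPK KO), 46 (torin1 in WT), 44 (AMPK KO against WT), 36 (torin1 against MK-8722), 15 (interaction with MK-8722) and 5 (interaction with torin1). With a fold change of at least 1.5 they were 0, 0, 10, 9, 9, 0 and 0, and 7 for torin1 in AMPK KO. The single call of MK-8722 in AMPK KO became 0 with scaling by library size alone, without a filter, with at least 10 counts per library, with the replicate block, with the length offset and without passages 12 and 16, and 2 with passage as a block. Beside these counts of 0 in edgeR, an unadjusted p under 0.05 was reached by 9 members for MK-8722 in AMPK KO, 37 for MK-8722 in WT, 36 for its interaction and 13 for that of torin1. The share of all genes at this p is not given here, so these counts are not a result about the members. The interaction with MK-8722 gave 11 calls in DESeq2 and 12 with passage as a block, and that with torin1 gave 1 with library size alone and 1 with at least 10 counts. Without 1 library at a time the calls ranged from 9 to 14 (MK-8722 in WT), 0 to 1 (MK-8722 in AMPK KO), 28 to 33 (torin1 in WT), 29 to 35 (torin1 in AMPK KO), 26 to 31 (AMPK KO against WT), 23 to 25 (torin1 against MK-8722), 5 to 13 (interaction with MK-8722, lowest without AMPK KO DMSO replicate 3 and highest without WT MK-8722 replicate 2) and 1 to 4 (interaction with torin1, lowest without AMPK KO DMSO replicate 1 and highest without WT torin1 replicate 4). The causes were not tested, apart from the thresholds, which by construction call more or fewer genes.

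With replicate number as a block the members called were 10 and 0 for MK-8722 in WT and AMPK KO, 29 and 30 for torin1, 27 between genotypes, 23 between the drugs, and 8 and 3 for the interactions. Deviations of libraries with the same number had correlations of -0.196 to 0.25 (median 0.024), so the numbers do not pair the libraries. Those of the same passage had -0.011 to 0.367 (median 0.129), against a median of -0.04 for pairs of a genotype sharing neither. The main fit had no block. With passage as a block the members called were 10 and 2 for MK-8722 in WT and AMPK KO and 29 and 30 for torin1. They were 28 between genotypes, 23 between the drugs, and 12 and 4 for the interactions. A pyrimidine start was found in 12 members, in 3 at the annotated start itself, and in 19 with a wider window of up to 30 bases after the start that was chosen after seeing the data (38.8%, against 27.1% of tested genes). With 4 libraries per group, the smallest p of an exact permutation test is 0.0286, and members below 5 CPM, such as Eif4e3 in WT, have the widest errors.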
